A study of Mus musculus with 10 samples.

Results

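The genes described here encode the machinery by which liver cells build very-low-density lipoprotein (VLDL) and carry it out of the endoplasmic reticulum. The 10 genes, Apob, Mttp, Tm6sf2, Pla2g12b, Sar1b, Sec24c, Surf4, Mia2, Mia3 and Sort1, were taken as a list of symbols and matched to the NCBI Gene numbers of the count table. All 10 were found among its 27179 genes, and all 10 passed the filter on low counts that left 15226 genes for testing. Bulk RNA sequencing was carried out on liver from male C57BL/6 mice of both genotypes after 12 weeks on a diet that induces nonalcoholic steatohepatitis (NASH). The 5 control mice were Lpcat3f/f, carrying floxed alleles without Cre, and the 5 LKO mice were Lpcat3f/f Albumin-Cre. Lpcat3 encodes an acyltransferase that inserts polyunsaturated fatty acids into membrane phospholipids. The albumin promoter drives Cre in hepatocytes, and whether other liver cells keep the gene was not measured here. The labels used here state no age.

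Each VLDL particle is built on 1 molecule of apolipoprotein B, the product of Apob, which is loaded with triglyceride and phospholipid in the endoplasmic reticulum while it is being made. The particle is too large for an ordinary transport vesicle, so dedicated receptors and scaffolds collect it and shape the carrier coated with COPII proteins that takes it to the Golgi. Loss of any of several of these proteins traps lipid in the hepatocyte. Polyunsaturated phospholipids made by the Lpcat3 enzyme are known to aid lipid loading, and the comparison asks how the transcripts of this machinery stood when hepatocytes lacked that enzyme.

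Libraries held 26914124 to 46727182 counts, and levels below are CPM, counts relative to library size after scaling by the trimmed mean of M-values (TMM). Lpcat3 itself stood at 94.1 to 123.9 CPM in control and at 25.5 to 38.5 CPM in LKO (log2 fold change -1.79; adjusted p = 0.000151 by edgeR's quasi-likelihood test). It shares part of its locus with Emg1, and how reads in the shared stretch were counted is not stated in the labels used here. Control 4 lay among the LKO libraries on the first principal component of all tested genes, at 30.2 against -52.7 to -30.1 in the other controls, and LKO 3 lay at the far end, at 82.3. The summed level of 12 hepatocyte markers, led by Alb and Ahsg, was 39493 to 62136 CPM in control and 34454 to 49697 CPM in LKO. Control 4 was the lowest control and LKO 5 the lowest LKO library, while LKO 3 stood at 38653 CPM. None of those 12 markers was at 0 in any library. Macrophage markers summed to 302 to 709 CPM in control and 512 to 1062 CPM in LKO, with control 4 and LKO 3 the highest library of each group, and 11 of 12 were higher in LKO. Stellate cell markers (8 of 8 higher) summed to 250 to 603 against 352 to 845 CPM, endothelial markers (8 of 8) to 411 to 471 against 412 to 634 CPM, and cholangiocyte markers (6 of 6) to 23.3 to 158 against 28.2 to 367 CPM. The macrophage and cholangiocyte lists share Spp1, which gave most of the cholangiocyte sum (mean 45.8 of 54.2 CPM in control and 122 of 142 CPM in LKO). Neutrophil markers (4 of 4 tested higher) summed to 3.24 to 8.09 against 6.22 to 11.4 CPM, with Ly6g at 0 in 8 libraries, and lymphocyte markers (6 of 8 tested higher) to 3.84 to 7.45 against 5.14 to 8.75 CPM. Enterocytes also make lipoproteins, and their 5 markers summed to 55.8 to 76.6 CPM in control and 41.9 to 122 CPM in LKO. Nearly all of this was Fabp2 (40.1 to 121.9 CPM), while Vil1 reached 62 counts at most and Lct, Sis and Alpi 17. None of these markers passed an adjusted p under 0.05 in edgeR. The part of these cell types in the results below was not tested, and in bulk liver fewer hepatocytes and less RNA per hepatocyte cannot be told apart.

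With 1 library per mouse, p-values below set the difference between genotypes against a spread between mice. In edgeR that spread is estimated partly from all genes, so it is not each gene's own spread alone. None of the 10 transcripts changed between genotypes at an adjusted p under 0.05 (edgeR quasi-likelihood test, Benjamini-Hochberg), a threshold passed by 10 genes, or 0.0657% of those tested. The log2 fold changes of the 10 ran from -0.34 (Mia2) to 0.06 (Sort1), with 7 below and 3 above 0 with TMM scaling and a median of -0.07, against -0.00 for all genes. At an unadjusted edgeR p under 0.05, 2 of the 10 were lower in LKO, Mia2 and Pla2g12b, where 9.5% of all tested genes were, and 0 were higher, against 12.8% of all genes. With TMM scaling every LKO library lay below every control library for Apob and Mia2, as for 2.23% of all genes, and no member had every LKO library above control, as 1.72% of all genes did. Relative to total counts, without the TMM factors, the groups overlapped for all 10 genes, Apob and Mia2 included. DESeq2 called 2 of the 10 at an adjusted p under 0.05, Apob and Mia2, and 7.79% of all genes. With limma voom and quality weights, 1 of the 10 was called, Mia2, against 16.2% of all genes.

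**Figure D1:**
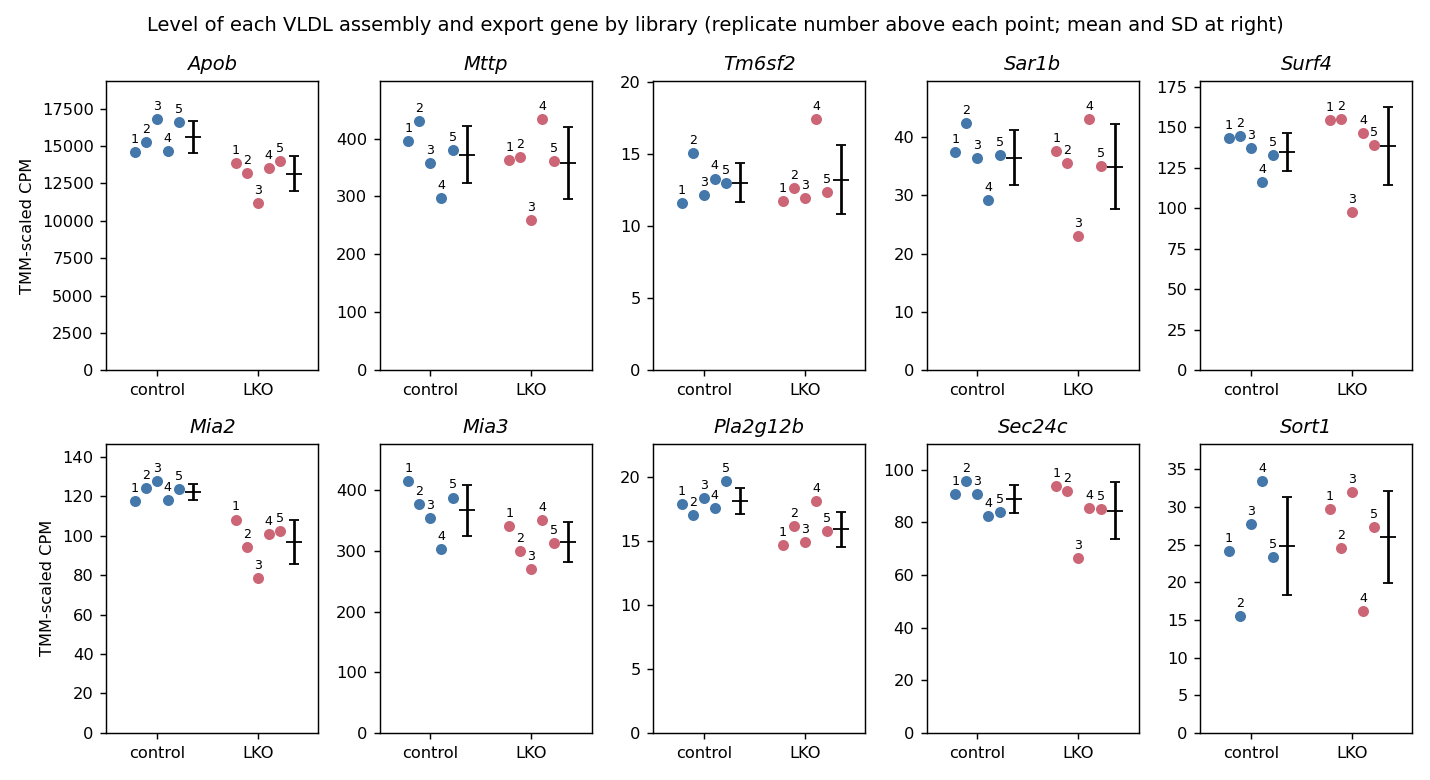
TMM-scaled CPM (vertical axis, from 0) of each of the 10 genes in the 5 control and 5 LKO libraries, 1 point per library with its replicate number, and the group mean with its SD at the right of each cluster. With this scaling the clusters of Apob and Mia2 do not overlap, while those of the other 8 genes do, and LKO 3 is the lowest LKO point for 7 genes.

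Apob (NCBI Gene 238055) encodes the structural protein of the particle, and its transcript was by far the most abundant of the set, holding 1.22% to 1.69% of all counts in a library. Controls 1 to 5 had 14618, 15297, 16829, 14669 and 16641 CPM. LKO 1 to 5 had 13866, 13175, 11185, 13556 and 14026 CPM. With TMM scaling the highest LKO library was thus below the lowest control, with a narrow gap, and LKO 3 was the lowest. Relative to total counts Apob stood at 12165 to 16907 CPM in control and at 13425 to 16036 CPM in LKO, so all 5 LKO libraries lay inside the control range, with LKO 4 the lowest. The TMM factor was 1.29 in LKO 3, the highest of the 10 libraries, and 0.832 in control 1, the lowest. The means were 15611 ± 1062 CPM in control and 13162 ± 1152 CPM in LKO (SD, n = 5). The log2 fold change was -0.25 (SE 0.18; 95% interval -0.64 to 0.14; edgeR adjusted p = 0.421), so the difference did not pass the test. DESeq2 gave an adjusted p of 0.0405 for the same fold change, and limma voom gave 0.188. Without LKO 3 the log2 fold change was -0.20, and without control 4 it was -0.27.

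Apob is shown here with the 250 bases upstream of its RefSeq start site (GRCm38.p6, plus strand, chr12:7977427-7977676), because it is the most abundant of these transcripts and 1 of the 2 whose groups do not overlap with TMM scaling.
Apob: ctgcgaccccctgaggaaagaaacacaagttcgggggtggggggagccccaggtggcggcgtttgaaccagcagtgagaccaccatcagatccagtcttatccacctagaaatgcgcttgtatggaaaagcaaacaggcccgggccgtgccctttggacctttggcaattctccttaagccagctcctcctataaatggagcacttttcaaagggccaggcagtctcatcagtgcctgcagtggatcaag
Windows reaching from 250 bases before to 50 bases after each start site were searched on both strands for 5 short motifs. These were CAAAGTCCA (core of the HNF4A site), AGGTCA (nuclear receptor half-site), GTTAAT (HNF1 half-site), GTAAACA (forkhead core) and TGACGTG (core bound by CREB3 family proteins and XBP1). Among 32851 promoters of the RefSeq table, 0.5%, 16.3%, 7.1%, 3.6% and 2.0% held them, in that order, and none was in the Apob window, which was 56.7% G and C. The table held 10 windows for 8 of the 10 genes, and Tm6sf2 and Sort1 were not matched in it. A match is a run of letters and not a shown binding site, and its absence says only that these letters are not in the window.

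Mttp (NCBI Gene 17777) encodes the large subunit of the microsomal triglyceride transfer protein, which hands lipid to the growing apolipoprotein B chain. Control 1 to 5 levels were 396.0, 430.8, 357.4, 297.2 and 379.8 CPM. LKO 1 to 5 levels were 363.7, 368.5, 259.7, 434.2 and 361.6 CPM. The groups overlapped, with the highest value in LKO 4 and the lowest in LKO 3, and control 4 was the lowest control. The means were 372 ± 49.8 and 358 ± 62.5 CPM (log2 fold change -0.06, SE 0.15, 95% interval -0.38 to 0.26; edgeR adjusted p = 0.832). The sign turned when LKO 3 was left out (0.03).

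Tm6sf2 (NCBI Gene 107770), a membrane protein of the endoplasmic reticulum needed to enlarge the particle with lipid, was among the scarce transcripts, with 307 to 686 counts per library. Controls 1 to 5 had 11.6, 15.1, 12.15, 13.3 and 13.0 CPM. In LKO 1 to 5 it stood at 11.75, 12.6, 12.0, 17.5 and 12.4 CPM. LKO 4 stood above all other libraries of both groups, and the remaining 4 LKO libraries lay inside the control range. The means were 13.0 ± 1.33 and 13.2 ± 2.39 CPM (log2 fold change 0.02, SE 0.12, 95% interval -0.25 to 0.30; edgeR adjusted p = 0.922). Without LKO 4 the log2 fold change was -0.10.

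Pla2g12b (NCBI Gene 69836) encodes a secreted phospholipase relative without catalytic activity that helps load lipid onto the nascent particle. Its control levels in libraries 1 to 5 were 17.9, 17.0, 18.4, 17.6 and 19.6 CPM. Its LKO levels were 14.6, 16.1, 14.9, 18.1 and 15.7 CPM. All LKO libraries but LKO 4 lay below the lowest control, so the groups overlapped through that library alone. The means were 18.1 ± 0.987 and 15.9 ± 1.36 CPM. The log2 fold change was -0.19 (SE 0.08; 95% interval -0.36 to -0.01), with an unadjusted p of 0.0374 and a Benjamini-Hochberg adjusted p of 0.201 (edgeR). Leaving out each library in turn kept its log2 fold change between -0.24 and -0.16.

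Among the genes for exit from the endoplasmic reticulum, Mia2 had the lowest log2 fold change of all 10. Mia2 (NCBI Gene 338320) gives rise to the long form TALI and the shorter cTAGE5, which recruit COPII proteins to exit sites holding large cargo. Controls 1 to 5 had 117.4, 124.0, 127.5, 118.2 and 123.8 CPM, the tightest control group of the set (coefficient of variation 3.48%). LKO 1 to 5 had 108.2, 94.2, 78.5, 100.8 and 102.3 CPM. With TMM scaling the groups did not overlap, and LKO 3 was again the lowest library. Relative to total counts Mia2 stood at 97.7 to 136.3 CPM in control and at 99.8 to 117.0 CPM in LKO, so the groups overlapped. The means were 122 ± 4.25 and 96.8 ± 11.4 CPM, a 1.26-fold lower mean in LKO. The log2 fold change was -0.34 (SE 0.09; 95% interval -0.54 to -0.14), with an unadjusted p of 0.00325 and a Benjamini-Hochberg adjusted p of 0.107 (edgeR), so it missed the threshold.

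The Mia2 call depended on the method and, among the omissions of a single library, changed only without control 4. Adjusted p-values were 0.00795 with DESeq2 and 0.0156 with limma voom. Without control 4 the edgeR adjusted p was 0.0380, in a fit that called 15.0% of all genes. Without control 4 and LKO 3 together it was 0.0244, with a log2 fold change of -0.29, in a fit that called 15.6% of all genes. With LKO 3 alone left out the log2 fold change of -0.27 had an edgeR adjusted p of 0.136. Over the single omissions the edgeR adjusted p ran from 0.0380 to 0.267.

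The RefSeq table gave 3 start sites for Mia2, and the counts are per gene, so they do not tell which were used. The upstream 250 bases of start site 1 (GRCm38.p6, plus strand, chr12:59095341-59095590) and start site 3 (plus strand, chr12:59131231-59131480) are shown because they differ in make-up. Capitals mark a motif match.
Mia2, start site 1: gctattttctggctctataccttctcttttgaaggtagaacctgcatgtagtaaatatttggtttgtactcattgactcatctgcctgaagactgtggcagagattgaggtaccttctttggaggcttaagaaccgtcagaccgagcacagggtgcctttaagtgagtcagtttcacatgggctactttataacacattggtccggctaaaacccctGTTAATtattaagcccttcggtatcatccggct
Mia2, start site 3: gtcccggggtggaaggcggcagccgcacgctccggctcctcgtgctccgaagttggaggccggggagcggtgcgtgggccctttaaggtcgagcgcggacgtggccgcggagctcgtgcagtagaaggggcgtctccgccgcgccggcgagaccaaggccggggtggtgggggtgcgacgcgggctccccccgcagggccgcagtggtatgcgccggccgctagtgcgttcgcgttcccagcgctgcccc
The window of site 1, of 300 bases, was 45.0% G and C with 5 CpG dinucleotides, and that of site 3 was 76.3% G and C with 45, where the median of all promoters was 52.7% G and C. The window of site 1 held GTTAAT at 2 places, starting 33 bases before and 30 bases after the start site, and was the only 1 of the 10 windows with that motif. The windows of sites 2 and 3 held none of the 5 motifs.

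Mia3 (NCBI Gene 338366) encodes TANGO1, the partner of the Mia2 products, which spans the membrane at exit sites and binds bulky cargo from the inside. Control levels from 1 to 5 were 414.8, 378.2, 353.7, 303.4 and 388.3 CPM. LKO levels from 1 to 5 were 340.9, 299.4, 270.2, 350.8 and 313.7 CPM. Control 4 lay inside the LKO range, and the other 4 controls were above every LKO library. The means were 368 ± 42.1 and 315 ± 32.4 CPM (log2 fold change -0.22, SE 0.11, 95% interval -0.47 to 0.02; edgeR unadjusted p = 0.0736 and adjusted p = 0.261). Leaving out control 4 gave -0.29 (edgeR adjusted p = 0.0902).

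The upstream 250 bases of Mia3 (GRCm38.p6, minus strand, chr1:183369566-183369815) are shown as those of the partner of Mia2, with a motif match in capitals.
Mia3: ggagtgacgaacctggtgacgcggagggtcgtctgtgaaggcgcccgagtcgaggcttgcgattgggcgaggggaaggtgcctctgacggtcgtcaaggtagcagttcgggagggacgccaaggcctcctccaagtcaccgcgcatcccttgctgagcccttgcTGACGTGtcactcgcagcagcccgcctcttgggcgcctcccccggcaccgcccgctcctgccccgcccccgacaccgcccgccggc
The match was TGACGTG, starting 86 bases before the start site, in a window of 72.0% G and C. It was the only window of the 10 with that motif, and Mia2 and Mia3 shared none of the 5.

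Surf4 (NCBI Gene 20932) encodes the receptor in the endoplasmic reticulum membrane that recruits lipoproteins into the carrier. In control 1 to 5 it stood at 143.4, 144.8, 137.0, 116.1 and 133.0 CPM. The LKO 1 to 5 values were 154.3, 155.3, 97.4, 146.5 and 139.0 CPM. LKO 1, 2 and 4 were above every control, and LKO 3 was below every other library. The means were 135 ± 11.6 and 138 ± 23.9 CPM (log2 fold change 0.04, SE 0.13, 95% interval -0.24 to 0.32; edgeR adjusted p = 0.877). Without LKO 3 the log2 fold change was 0.14 and without control 4 it was -0.01. Surf4 overlaps Surf2 in the annotation, and whether counting used the strand is not stated in the labels used here.

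Sar1b (NCBI Gene 66397) encodes the small GTPase that starts COPII coat assembly, and Sar1a its close paralogue. Sar1b stood at 37.5, 42.4, 36.3, 29.2 and 36.9 CPM in controls 1 to 5. In LKO 1 to 5 it had 37.7, 35.6, 23.1, 43.15 and 35.0 CPM. The groups overlapped, with LKO 3 and control 4 lowest in their groups (log2 fold change -0.06, SE 0.15, 95% interval -0.40 to 0.27; edgeR adjusted p = 0.827). As a share of Sar1a plus Sar1b counts, Sar1b made up 46.8%, 46.4%, 42.7%, 38.1% and 41.6% in control and 42.8%, 41.9%, 30.85%, 43.8% and 41.1% in LKO. The mean share was 43.1% ± 3.61 and 40.1% ± 5.27 (SD, n = 5; exact two-sided permutation test over all assignments of the 10 mice, p = 0.389, where the smallest possible is 0.00794). Reads common to both paralogues may have been split or dropped, so this share is uncertain.

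Sec24c (NCBI Gene 218811) encodes a cargo-binding subunit of the COPII inner coat. Controls 1 to 5 held 90.9, 95.5, 90.7, 82.5 and 84.1 CPM. LKO 1 to 5 held 93.7, 91.8, 66.6, 85.4 and 85.0 CPM. All LKO libraries but LKO 3 lay inside the control range (log2 fold change -0.07, SE 0.10, 95% interval -0.28 to 0.14; edgeR adjusted p = 0.689). Without LKO 3 the value was close to 0 (-0.00).

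Sort1 (NCBI Gene 20661) encodes sortilin, a Golgi sorting receptor that binds apolipoprotein B and can send it to secretion or to the lysosome. Its level was 24.1, 15.5, 27.7, 33.4 and 23.4 CPM in controls 1 to 5. It was 29.7, 24.6, 32.0, 16.2 and 27.3 CPM in LKO 1 to 5. The transcript varied within groups more than any other of the set (coefficients of variation 26.3% and 23.6%), and the groups overlapped over nearly their whole range. The log2 fold change was 0.06 (SE 0.21; 95% interval -0.40 to 0.53; edgeR adjusted p = 0.875), the widest interval of the 10.

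With TMM scaling the same few libraries were high or low for many of these genes. LKO 3 had the lowest LKO level of 7 genes (Apob, Mttp, Sar1b, Surf4, Mia2, Mia3 and Sec24c) and a median of -0.45 on the log2 scale relative to the control mean. Control 4 was the lowest control for 5 genes (Mttp, Sar1b, Surf4, Mia3 and Sec24c), and 8 of its 10 genes were below the control mean. In both libraries Sort1 went the other way and was the highest of its group, 0.47 above the control mean in control 4 and 0.41 above it in LKO 3. Control 2 and LKO 4 showed the reverse arrangement. Each was the highest of its group for 5 genes, Mttp, Tm6sf2 and Sar1b among them in both, and the lowest for Sort1 (-0.63 and -0.57). The pattern rested in part on the scaling. Relative to total counts LKO 3 was the lowest LKO library for 3 genes (Mttp, Sar1b and Surf4), and control 4, whose TMM factor of 1.154 was the highest of the controls, was the lowest control for 0 genes and the highest for 7. Under both scalings control 2 was the highest control for Mttp and Sar1b, LKO 4 was the highest LKO library for Mttp, Tm6sf2 and Sar1b, and Sort1 was highest in control 4 and LKO 3 and lowest in control 2 and LKO 4 of their groups. Control 4 and LKO 3 were also the libraries with the highest macrophage, stellate and cholangiocyte marker sums of their groups. The part of those cells in the pattern was not tested.

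**Figure D2:**
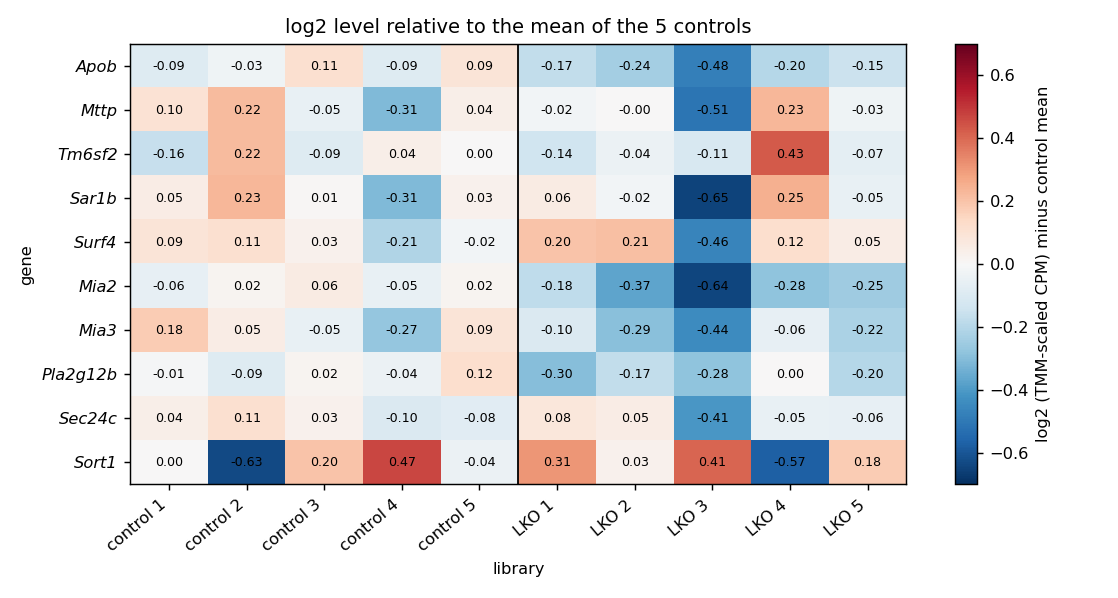
Map of the log2 TMM-scaled CPM of each gene (vertical) in each library (horizontal), minus the mean of the 5 controls, with the value printed in each cell, red above and blue below 0. The LKO 3 column is below 0 for 9 genes and above it for Sort1 (0.41), and the Sort1 row is opposite in sign to the Mttp and Sar1b rows in control 2, control 4, LKO 3 and LKO 4.

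Levels were ranked across genes per kilobase of the longest protein-coding GENCODE transcript, leaving out Mia3, whose transcripts in that annotation are too short for the full protein. In control liver Apob stood at 1120 ± 76.2 CPM per kb, Mttp at 93.9 ± 12.6, Surf4 at 41.1 ± 3.52, Sar1b at 30.4 ± 3.92 and Mia2 at 27.6 ± 0.958. Sec24c followed at 19.9 ± 1.2, Pla2g12b at 16.6 ± 0.905, Tm6sf2 at 9.01 ± 0.921 and Sort1 at 3.63 ± 0.954 CPM per kb (SD, n = 5). Among neighbours in this order, the ranges of Sar1b and Mia2 overlapped (24.4 to 35.3 and 26.5 to 28.8). Those of the other neighbours did not. Apob therefore stood above the lipid transfer protein that loads it. Both stood above the coat and exit members ranked here, Surf4, Sar1b, Mia2 and Sec24c, while the place of Mia3 is not known. In LKO the means were 945 CPM per kb for Apob, 90.2 for Mttp, 42.2 for Surf4 and 21.8 for Mia2.

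The titles of 1 control and 2 LKO libraries share the code A54, which the labels do not explain, while the codes A55 and A67 mark 1 genotype each. Within A54 the log2 differences between LKO and control were -0.37 for Mia3, -0.22 for Pla2g12b, -0.21 for Mia2 and -0.11 for Apob and for Mttp. Surf4 stood at 0.11, Tm6sf2 at 0.07, Sec24c at 0.03, Sar1b at -0.03 and Sort1 at 0.17. With 1 control these differences have no replicate check. A fit with the code as a covariate takes its genotype term from the A54 libraries alone. It gave -1.99 for Lpcat3 on the log2 scale and is not a separate check.

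The direction of most members depended on how libraries were scaled. Scaling to total counts moved the all-gene median on the log2 scale to 0.235, and scaling to the 12 hepatocyte markers moved it to 0.375. The members' median moved with it, to 0.16 and 0.31, and 8 and 10 of the 10 were then above 0, with 0 called by edgeR in either. Relative to the median of all genes, the members' median was -0.07 under both and -0.06 with TMM. Mia2 stayed the lowest of the 10 under both, at -0.11 with total counts and 0.03 with hepatocyte markers. Apob stood at -0.01 with total counts and at 0.13 with hepatocyte markers. With TMM the hepatocyte markers themselves were lower in LKO for 12 of 12 (median -0.39 on the log2 scale), 0 called by edgeR and 4 lower at an unadjusted p under 0.05, where 9.5% of all genes were.

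**Figure D3:**
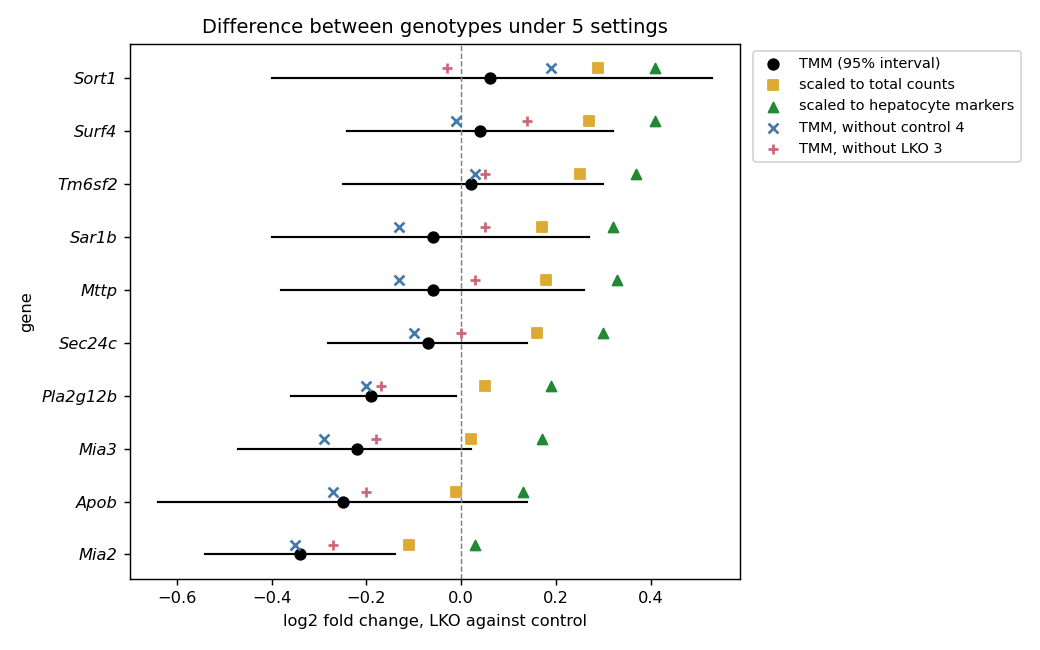
Log2 fold change of each gene in LKO against control (horizontal) with TMM scaling and its 95% interval (black), and under 4 other settings given by symbol. The intervals of Mia2 and Pla2g12b alone lie wholly below 0, and scaling to hepatocyte markers (triangles) places all 10 genes above 0.

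Lists for the steps before and after assembly were described in the same way, with 0 genes called in any by edgeR. Directions are given with TMM scaling. Scaling to total counts moved the medians of the 6 lists to between -0.00 (regulators) and 0.23 (COPII coat and exit site genes). The all-gene median moved to 0.235. Of 13 genes that supply lipid to the particle, 5 were higher and 8 lower in LKO (median -0.05 on the log2 scale). Pltp, the phospholipid transfer protein, stood at 10.1 ± 3.57 CPM in control and 18.7 ± 3.69 CPM in LKO (log2 fold change 0.88; edgeR adjusted p = 0.101), and control 4, at 15.8 CPM, was the control inside the LKO range. Dgat2, which makes triglyceride, stood at 243 ± 50.2 and 161 ± 39.5 CPM (log2 fold change -0.59; edgeR adjusted p = 0.142). The lipid droplet carboxylesterases Ces3a and Ces3b, members of a multigene family among which reads may be split, had log2 fold changes of -0.60 and -0.72 (edgeR adjusted p = 0.202 and 0.307). Both genes thus stood lower on average in LKO without passing the test.

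The other COPII coat and exit site genes were close to even, with 6 higher and 10 lower of 16 and a median of -0.01. Sec24a, a paralogue of Sec24c, stood at 265 ± 27.3 and 206 ± 50.5 CPM (log2 fold change -0.36; edgeR adjusted p = 0.206). Creb3l2, a transcription factor for secretory pathway genes, had a log2 fold change of 0.32 (edgeR adjusted p = 0.231). Lman1, a cargo receptor, stood at -0.25 and Sar1a at 0.10 (edgeR adjusted p = 0.375 and 0.403). Of 14 genes for folding, editing, sorting and degradation of apolipoprotein B, 6 were higher and 8 lower (median -0.05). Apobec1, the deaminase that edits the Apob transcript to give the shorter protein, stood at 17.5 ± 4.71 and 26.6 ± 4.12 CPM (log2 fold change 0.60; edgeR adjusted p = 0.112). A1cf, described as a cofactor of Apobec1, stood at 245 ± 38.3 and 190 ± 43.8 CPM (log2 fold change -0.36, edgeR adjusted p = 0.217). In control 4, Apobec1 was at 25.9 CPM against 14.5 to 16.2 CPM in the other controls. The chaperone Calr had a log2 fold change of -0.32 (edgeR adjusted p = 0.227).

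Of 12 transcription regulators of these genes, 11 were lower in LKO with TMM scaling, with a median of -0.25 that became -0.00 with total counts. The all-gene median was -0.00 with TMM and 0.235 with total counts, so the regulators' median lay below it under both. With scaling to hepatocyte markers the regulators' median was 0.15 and the all-gene median 0.375. Foxo1, known to activate Mttp, stood at 54.6 ± 7.42 and 42.0 ± 4.07 CPM (log2 fold change -0.38; edgeR adjusted p = 0.116). Hnf4a, which drives Apob and Mttp in hepatocytes, stood at 541.4, 531.1, 522.4, 472.0 and 478.8 CPM in controls 1 to 5 and at 381.0, 439.9, 450.4, 456.5 and 469.0 CPM in LKO 1 to 5. Its groups did not overlap, by a gap of a few CPM, but did relative to total counts (440.3 to 544.0 against 373.3 to 578.1 CPM), and its log2 fold change was -0.21 (edgeR adjusted p = 0.224). Nr5a2 stood at -0.24 and Xbp1 at -0.27 (edgeR adjusted p = 0.210 and 0.224).

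Among 9 exchangeable apolipoproteins, which join the particle from outside or late, 3 were higher and 6 lower (median -0.13). Apoa4 was at 141.9, 407.8, 166.7, 1086 and 150.2 CPM in controls 1 to 5 and at 789.7, 1401, 640.6, 1420 and 1824 CPM in LKO 1 to 5. Control 4 was the only control above any LKO library (log2 fold change 1.64; edgeR adjusted p = 0.155). Apoc2, the cofactor of lipoprotein lipase, had a log2 fold change of 0.53, while Apoh and Apoc3 stood at -0.41 and -0.44 (edgeR adjusted p = 0.147, 0.229 and 0.315). Of 8 clearance genes, 2 were higher and 6 lower (median -0.11). Vldlr, a receptor for VLDL, stood at 5.34 ± 1.67 and 8.50 ± 0.669 CPM, and Lpl, lipoprotein lipase, had a log2 fold change of 1.35 (edgeR adjusted p = 0.117 and 0.122). Lrp1, a remnant receptor, stood at -0.33 and Sdc1, a heparan sulfate proteoglycan, at -0.17 (edgeR adjusted p = 0.203 and 0.416).

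**Figure D4:**
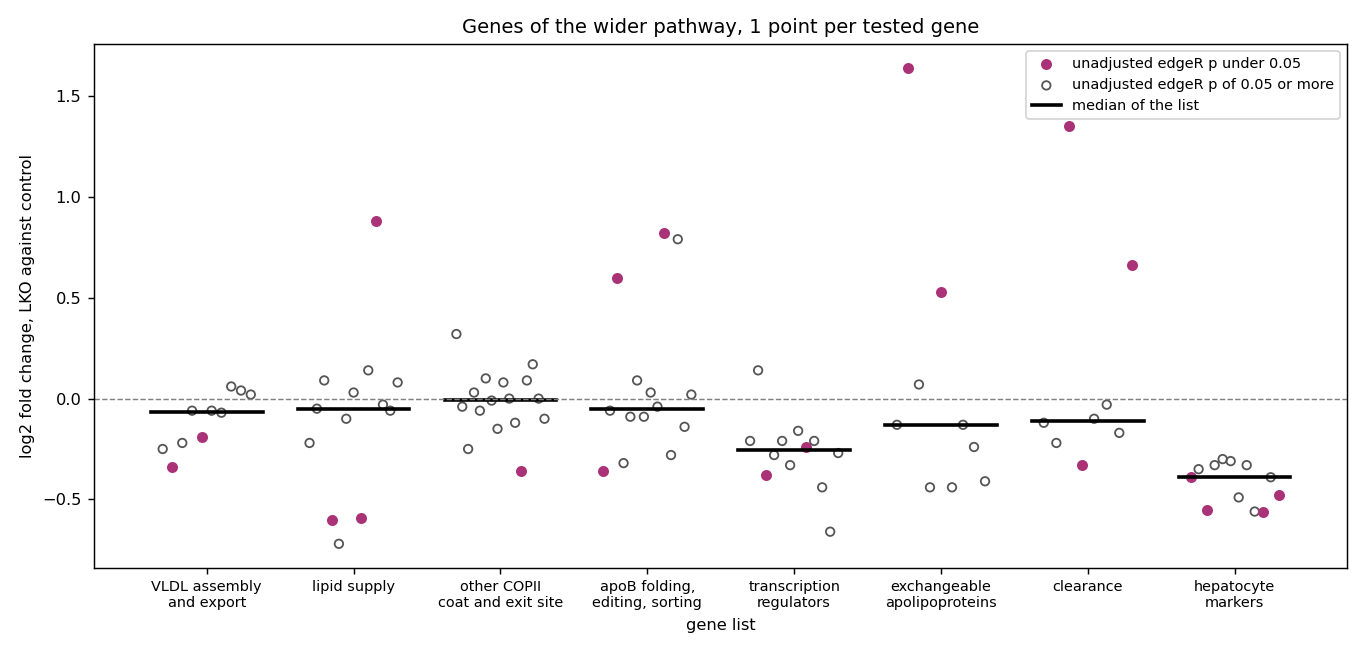
Log2 fold change in LKO against control (vertical) of every tested gene of 8 lists (horizontal), filled where the unadjusted edgeR p was under 0.05, with a bar at each list's median. The assembly and export genes span -0.34 to 0.06. Lipid supply genes span -0.72 to 0.88, apolipoprotein genes -0.44 to 1.64 and clearance genes -0.33 to 1.35. The medians of those 3 lists are -0.05, -0.13 and -0.11.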

How the data were processed

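Total RNA from frozen liver was depleted of ribosomal RNA, made into stranded libraries and read from 1 end for 101 cycles, per the labels' protocols. The deposited table holds whole-number counts per gene and library, not normalized. Software and build named in the submitters' processing notes are bcl2fastq 2.20, DESeq2 and GRCm39. Not given in the sources used here: aligner, counting tool, strand setting and annotation. Thus reads shared by overlapping or near-identical genes may move single genes.

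All 10 columns carried a sample's name, and 0 were unused. Gene symbols were looked up in RefSeq (GRCm38.p6) for 25275 of 27179 genes. The rest, with 0.693% of counts, were tested without a symbol. Of 13 hepatocyte markers, 12 were matched. Members, lists and tests were chosen with earlier results of these data known. The text names the 10 members, Lpcat3, and up to 4 genes of each of 6 pathway lists by smallest p, of which 1 is not reported here.

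Genotypes were compared with edgeR 4.0.16 in R 4.3.3 (filterByExpr, TMM, quasi-likelihood F test with the legacy option, two-sided, genotype as the only term), with Benjamini-Hochberg adjustment over 15226 genes and a threshold of 0.05. Standard errors and 95% intervals came from each gene's F statistic. The Sar1b share was tested by exact permutation (scipy 1.17.1). Every pair of same-group libraries differed beyond sampling noise (chi-square per degree of freedom of at least 32.1). Member counts ran from 307 to 715098 per library. Tried beside this were DESeq2 1.42.0, voom with quality weights (limma 3.58.1), other scalings, other filters, another threshold, robust dispersion, a replicate block, a covariate for the title code, and omission of libraries. Omitting control 4 with LKO 3 was added after seeing the data. The tests were also run on counts simulated from each gene's mean, the library sizes and the dispersions. No outlying library or shift in scaling was simulated, so those are not covered. Motifs and promoters came from RefSeq start sites, and figures were drawn with matplotlib 3.10.9.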

Additional observations from a re-analysis of the deposited data

Results flagged for a closer look

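In each of 40 groups of 5 values, the highest and the lowest library were compared with the rest of the group, a check that chance meets in about 1 of 20 groups. It was met in 8 groups, 5 of them marker sums that share control 4, and of those the macrophage and cholangiocyte sums share the gene Spp1. Tm6sf2 was at 17.5 CPM in LKO 4, where the other LKO libraries had 11.75 to 12.6 CPM. Surf4 was at 97.4 CPM in LKO 3, where the others had 139.0 to 155.3 CPM. Sar1b made up 30.85% of Sar1a plus Sar1b counts in LKO 3, against 41.1% to 43.8% in the others.

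Control 4 stood apart from the other 4 controls in 5 cell marker sums. Its hepatocyte sum was 39493 CPM against 56001 to 62136 CPM. Its macrophage sum was 709.1 CPM against 302.2 to 404.4 CPM, its stellate sum 602.7 CPM against 249.9 to 330.8 CPM, and its cholangiocyte sum 158.3 CPM against 23.3 to 32.7 CPM. Its neutrophil sum was 8.09 CPM against 3.24 to 3.96 CPM. The part of these differences in the member results was not tested.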

How the results depend on the processing

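With edgeR and all libraries 10 genes were called and none of the 10 members. The number of genes called was 31 with no filter, 20 with at least 1 CPM in 5 libraries, 1186 with DESeq2, 2460 with limma voom, 296 at an adjusted p under 0.1 and 2363 without control 4 and LKO 3. With the title code as a covariate the genotype term rests on the A54 libraries, which hold 1 control, so no count is given. With the replicate block 2 genes were called, with a members' median log2 fold change of -0.08. Whether the replicate numbers pair the mice is not stated in the labels used here. Deviations of same-numbered libraries correlated between -0.399 and 0.419, which does not decide it. Leaving out 1 library gave 2 to 2296 genes, the highest without control 4. Members called were 2 with DESeq2, 1 with limma voom, 1 without control 4 and LKO 3, and 0 to 1 with 1 library left out. The cause of these differences was not tested.

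With total counts the log2 fold change changed sign for Mttp (0.18), Sar1b (0.17), Mia3 (0.02), Pla2g12b (0.05) and Sec24c (0.16). With hepatocyte markers it did so for Apob (0.13), Mttp (0.33), Sar1b (0.32), Mia2 (0.03), Mia3 (0.17), Pla2g12b (0.19) and Sec24c (0.30). Surf4 was -0.06 without the A54 libraries, and Sec24c was 0.03 with the title code. With 1 library left out Mttp ran from -0.14 to 0.03, Tm6sf2 from -0.10 to 0.08, Sar1b from -0.16 to 0.05, Surf4 from -0.01 to 0.14 and Sort1 from -0.07 to 0.19. Under the same omissions Apob, Mia2, Mia3, Pla2g12b and Sec24c kept their sign. Counting error alone gives a coefficient of variation of 4.16% for Pla2g12b and 4.92% for Tm6sf2 in control, against 5.46% and 10.2% observed. In LKO it gives 4.181% and 4.571%, against 8.563% and 18.03% observed. For Sort1 it gives 3.562% in control and 3.293% in LKO, against 26.29% and 23.55% observed. Among these scarcer members counting error thus came close to the observed spread only for Pla2g12b in control.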

Other observations

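With TMM scaling, Apob varied within groups by 6.81% in control and 8.75% in LKO (coefficient of variation) and Mia2 by 3.48% and 11.7%, against a common biological coefficient of variation of 0.242 over all genes in edgeR. These are the 2 members for which the adjusted p of edgeR and of DESeq2 fell on different sides of 0.05. Pla2g12b also varied little (5.46% and 8.56%), and its adjusted p was above 0.05 with both (0.201 with edgeR and 0.149 with DESeq2). The part of the spread in this was not tested. Apobec1 and A1cf, both listed here for editing of the Apob transcript, had log2 fold changes of opposite sign (0.60 and -0.36). Neither passed the edgeR threshold (adjusted p = 0.112 and 0.217), and editing itself was not measured.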
